A study of Mus musculus with 6 samples.

Results

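The oogenesin genes Oog1, Oog2, Oog3 and Oog4 and the genes Khdc1a, Khdc1b and Khdc1c form 2 small gene families of the mouse oocyte. All 7 genes were found by their symbols among the 25631 genes of the deposited expression table, and all 7 were expressed highly enough to be compared. They were selected on their difference between the aminophylline and control libraries, so that difference is given below as a description, with no test. RNA was sequenced from oocytes released by puncture from large antral follicles of naturally aged ICR mice that had been injected with eCG, a gonadotropin that makes follicles grow. For the aminophylline group, 3 libraries were made from mice of 14 months that drank 4.0 mM aminophylline, a nonspecific phosphodiesterase inhibitor, for 1 week and then water alone for 3 weeks. For the control group, 3 libraries were made from mice of the same age that received water only, and these libraries are labelled as aged and untreated. The comparison asks how the drug altered the transcriptome of aged oocytes.

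Oogenesins belong to the PRAME family of leucine-rich repeat proteins, a family with many tandem copies in the mouse genome, and are known as transcripts of oocytes and early cleavage embryos. Khdc1 proteins carry a KH domain, a fold that is known for binding RNA, and are likewise known from oocytes and early embryos. A fully grown oocyte stores such maternal transcripts until the embryonic genome is activated, so their level reflects storage and decay as well as synthesis.

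In RefSeq GRCm38.p6, Oog3 lies at chr4:144157556-144162651 on the minus strand, and Oog2 follows 28065 bases further on at chr4:144190717-144196934 on the plus strand. Oog4 lies on the same chromosome at chr4:143437164-143450324 (minus strand), whereas Oog1 is on another chromosome at chr12:87602665-87608845 (plus strand). The Khdc1 genes form a tandem array of 36708 bases on the plus strand, with Khdc1a at chr1:21349677-21352199, Khdc1c at chr1:21368331-21369743 and Khdc1b at chr1:21383556-21386384. Each Khdc1 gene has 3 exons in its longest GENCODE coding transcript, and Oog1, Oog3 and Oog4 have 4.

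The bases just before the 4 Oog start sites are shown for comparison between Oog1 and the Oog genes on the other chromosome. Whether these bases bear on the levels in the aminophylline group was not tested. Each line gives 150 bases of RefSeq GRCm38.p6 before the annotated start, read 5′ to 3′ along the gene. Capitals mark runs of at least 8 bases that occur in the 250 bases before the start of all 4 genes.
Oog1, chr12:87602515-87602664, plus strand: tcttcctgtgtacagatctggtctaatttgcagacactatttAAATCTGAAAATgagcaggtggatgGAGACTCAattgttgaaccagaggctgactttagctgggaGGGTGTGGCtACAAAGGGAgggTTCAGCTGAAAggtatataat
Oog2, chr4:144190567-144190716, plus strand: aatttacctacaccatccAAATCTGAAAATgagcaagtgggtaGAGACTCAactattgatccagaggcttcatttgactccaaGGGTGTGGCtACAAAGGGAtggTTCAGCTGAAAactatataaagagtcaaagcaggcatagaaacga
Oog3, chr4:144162652-144162801, minus strand: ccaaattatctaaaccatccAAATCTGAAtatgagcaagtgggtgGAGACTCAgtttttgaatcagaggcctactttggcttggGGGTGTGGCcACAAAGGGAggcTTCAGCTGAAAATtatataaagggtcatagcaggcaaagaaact
Oog4, chr4:143450325-143450474, minus strand: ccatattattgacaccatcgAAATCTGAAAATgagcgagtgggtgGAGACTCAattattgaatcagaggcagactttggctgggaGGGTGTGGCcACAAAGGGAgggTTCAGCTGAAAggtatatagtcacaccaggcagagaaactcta

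Outside the capitals these stretches differ, and over 250 bases the pairs were 63.9% (Oog1 and Oog2) to 76.9% (Oog2 and Oog4) identical. The 6 shared runs were TTCAGCTGAAA, AAATCTGAA, GGGTGTGGC, ACAAAGGGA, GAGACTCA and CTGAAAAT. The last overlaps AAATCTGAA in Oog1, Oog2 and Oog4 and overlaps TTCAGCTGAAA in Oog3. GGGTGTGGC, ACAAAGGGA and TTCAGCTGAAA kept the same order and spacing in all 4 genes, with 10 bases from the start of the first to the start of the second and 12 from the second to the third. TTCAGCTGAAA began 45, 44 and 43 bases before the start of Oog2, Oog3 and Oog4, but 21 bases before that of Oog1. Searched on both strands, it was in 14 of the 32851 RefSeq promoter windows of this length (0.0426%). The 14 include windows of the 4 Oog genes, from which all these runs were picked, and of the related Pramel23, Pramel26 and Pramel32. GGGTGTGGC was in 1.21% of the windows and AAATCTGAA in 0.374%. These matches describe letters only and show no binding.

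The same runs were found before some PRAME relatives, the genes of the table whose symbols begin with Prame. Promoter windows were given for 31 of these 39 genes, of which 9 had a mean of at least 10 FPKM (fragments counted per kilobase of transcript and scaled to the reads of the library). AAATCTGAA was present in 6 of those 9 windows and in 0 of the other 22. GGGTGTGGC was present in 6 of the 9 and in 2 of the 22, and TTCAGCTGAAA in 3 of the 9 (Pramel23, Pramel26 and Pramel32) and in 0 of the 22. The 6 windows with AAATCTGAA include those of Pramel25, Pramel26, Pramel27 and Pramel29. These are the PRAME relatives closest in coding sequence to Oog1, Oog2, Oog3 and Oog4. Level and closeness to the Oog genes therefore cannot be told apart here.

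The members of both families differed widely in level, and the order of the group means was the same in both groups. Oog3 was the most abundant, ranking between 18 and 45 among all genes of a library, followed by Oog4 (rank 33 to 90), Khdc1b (135 to 258) and Oog2 (274 to 448). Oog1 ranked between 1000 and 1284. Khdc1a ranked between 2520 and 4424, and Khdc1c between 5493 and 7190. No 2 neighbours in this order overlapped in FPKM within either group. The Oog genes together took 0.463% to 0.870% of a library's reads, and the Khdc1 genes 0.0944% to 0.139%.

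**Figure D1:**
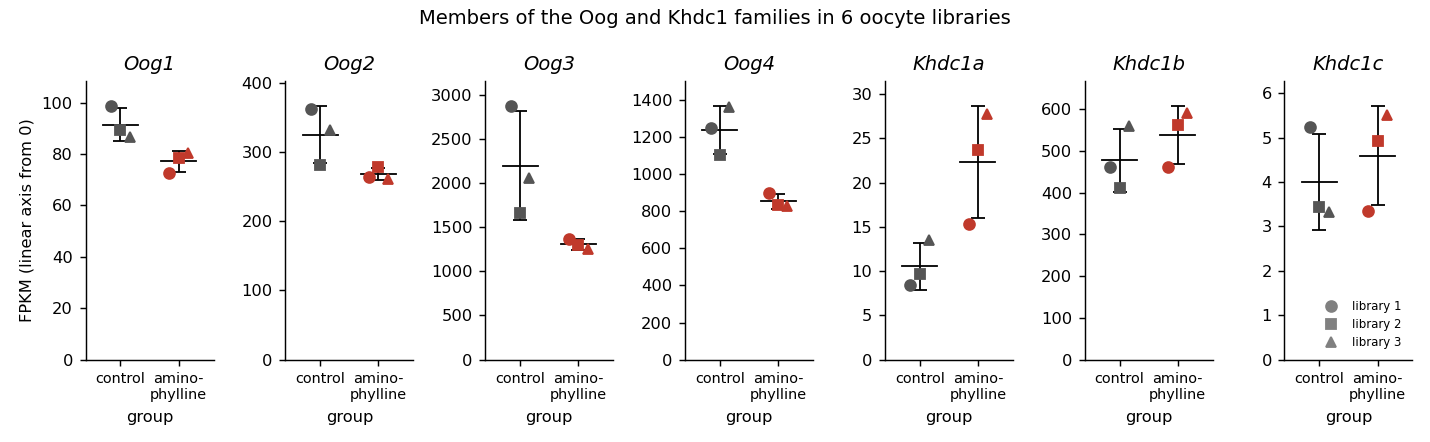
FPKM of each member (vertical axes, linear from 0) in the 3 control and 3 aminophylline libraries (points, with a symbol for each library number), with the group mean (long line) and SD (bar). The 4 Oog genes sit lower in every aminophylline library than in any control library, Khdc1a sits higher, from 15.3 to 27.8 FPKM against 8.48 to 13.6, and Khdc1b and Khdc1c overlap.

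Oog3, the most abundant oogenesin, had a level of 2870, 1662 and 2057 FPKM in control libraries 1, 2 and 3, and of 1370, 1294 and 1251 FPKM in aminophylline libraries 1, 2 and 3. Every aminophylline library was below every control library, and the control libraries were spread more widely than the aminophylline libraries. The means were 2196 ± 616 FPKM in control and 1305 ± 60.4 FPKM in aminophylline (SD, n = 3), a difference of -0.71 on the log2(FPKM + 1) scale with a standard error of 0.198. Control library 1 held the highest value. Without it the log2 difference of Oog3 was -0.50 (SE 0.164), which is a fold below 1.5.

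Oog4 had 1247, 1105 and 1361 FPKM in control and 901, 835 and 828 FPKM with aminophylline. The groups did not overlap, and the log2 difference was -0.53 (SE 0.150). Control library 1 was not the highest here, and the log2 difference without it was -0.52 (SE 0.161). Oog3 thus had the largest difference of the 4 Oog genes with all libraries, and Oog4 had it when control library 1 was left out. The mean FPKM decreased by 30.9% for Oog4 and decreased by 40.6% for Oog3 from control to aminophylline.

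Oog1 and Oog2 differed less. Oog2 had 362, 281 and 331 FPKM in control and 264, 277 and 261 FPKM with aminophylline, a log2 difference of -0.27 (SE 0.153). Aminophylline library 2 lay just under control library 2, so the groups were only narrowly separated. The counting interval (exact Poisson, 95%) was 275 to 287 FPKM in control library 2 and 273 to 282 FPKM in aminophylline library 2, so these 2 libraries could not be told apart at this depth.

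Oog1, the founding oogenesin, had 98.5, 89.4 and 86.4 FPKM in control and 72.5, 78.3 and 80.5 FPKM with aminophylline. Its log2 difference was -0.24 (SE 0.151). The gap between the closest libraries was small, 86.4 against 80.5 FPKM.

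All 4 Oog genes therefore had groups that did not overlap, with the aminophylline libraries lower, where 4.96% of the 10340 genes tested had such a pattern. The Oog genes were selected on this contrast, so nothing is read from that count. Summed over the 4 genes, the level was 3850 ± 720 FPKM in control and 2504 ± 94.8 FPKM in aminophylline (SD, n = 3), a mean that decreased by 35.0% from control to aminophylline, or decreased by 28.2% when control library 1 was left out. In these bulk libraries fewer oocytes with the transcript and less of it in each oocyte cannot be told apart, and the number of oocytes in a library is not given in the sources used here.

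When each library was rescaled to the same sum (TPM), the groups remained apart for Oog1, Oog3 and Oog4 but overlapped for Oog2, where control library 2 had 478 TPM and aminophylline library 2 had 490 TPM. The Oog genes were also set against Gdf9, a growth factor that oocytes secrete, and against Zp3, a protein of the zona pellucida. The ratio of the summed Oog FPKM to Gdf9 was 3.01, 0.856 and 1.16 in control and 0.725, 0.873 and 0.845 with aminophylline. The ratio to Zp3 was 1.49, 0.552 and 1.03 in control and 0.549, 0.551 and 0.681 with aminophylline. Relative to either oocyte gene, the aminophylline libraries overlapped with control library 2.

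Control library 1 stood apart in these ratios. Its Gdf9 level was 1518 FPKM, against 2845 to 3663 FPKM in the other 5 libraries. Its 15 oocyte marker genes, all detected at 1 FPKM or more in every library, summed to 9851 FPKM against 12658 to 15047 FPKM. Its macrophage markers, 13 of 14 of which were in the table, summed to 265 FPKM against 82.0 to 103 FPKM in the other libraries, but only C1qb was at 1 FPKM or more in every library. C1qb alone had 72.3 to 99.8 FPKM, with its lowest value in control library 1. The other 12 markers summed to 193 FPKM in control library 1 and to 2.17 to 3.72 FPKM elsewhere. Markers of granulosa cells summed to 18.2 to 26.5 FPKM and those of theca and stroma to 0.812 to 1.99 FPKM in all 6 libraries. The part of these differences in the Oog values was not tested beyond leaving out the library.

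The shares of the Oog genes in their family are given as a description, and that of Oog3 was highest in control library 1. Oog3 made up 62.7% of the summed Oog FPKM in control library 1, 53.0% and 53.6% in control libraries 2 and 3, and 51.7% to 52.6% with aminophylline. Oog2 held 7.91%, 8.96% and 8.64% in control and 10.1%, 11.2% and 10.8% with aminophylline. Neither gene's share overlapped between the groups, but for Oog3 control library 2 (53.0%) and aminophylline library 1 (52.6%) were close. The shares within a family depend on each other, and the genes were selected on this contrast. Nothing is therefore read from this separation. The shares of Oog1 and Oog4 overlapped. The ratio of Oog3 to Oog4 was 2.30 in control library 1 and 1.504 to 1.551 in the other 5. The ratio of Oog2 to Oog1 ranged from 3.14 to 3.83 with the groups overlapping. Across the 6 libraries, the Pearson correlation between pairs of Oog genes on the log2 scale ranged from 0.748 to 0.966, which is a description of libraries that share the group difference.

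Among the Khdc1 genes, Khdc1a was higher in the aminophylline group. It had 8.48, 9.67 and 13.6 FPKM in the control libraries, from 556, 266 and 841 reads, and 15.3, 23.7 and 27.8 FPKM with aminophylline, from 845, 1146 and 1656 reads. The groups did not overlap, as for 7.51% of the genes tested in this direction, and from this nothing is read. The means were 10.6 ± 2.66 FPKM in control and 22.3 ± 6.33 FPKM in aminophylline (SD, n = 3), a log2 difference of 0.99 (SE 0.254) and a 2.11-fold ratio of means. The separation was narrow between control library 3 and aminophylline library 1, with 95% counting intervals of 12.7 to 14.5 and 14.3 to 16.4 FPKM. In TPM these 2 libraries crossed, at 26.6 and 26.3.

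Khdc1b, the abundant member, had 462, 410 and 560 FPKM in control and 461, 563 and 591 FPKM with aminophylline. The groups overlapped, and the log2 difference of 0.18 (SE 0.171) was about the size of its error. Khdc1c had 5.25, 3.44 and 3.32 FPKM in control and 3.36, 4.93 and 5.50 FPKM with aminophylline. These values rest on 41 to 149 reads, and the log2 difference was 0.16 (SE 0.248) with overlapping groups. For neither gene was a difference detectable against the spread between libraries.

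The balance within the Khdc1 family is given as a description. Khdc1b made up 94.7% to 97.1% of the summed Khdc1 FPKM in every library. The ratio of Khdc1b to Khdc1a was 54.5, 42.5 and 41.3 in control and 30.0, 23.7 and 21.3 with aminophylline, with no overlap. This ratio is taken within each library and so does not depend on the scaling between libraries. Khdc1a accordingly held 1.78% to 2.35% of the family's FPKM in control and 3.20% to 4.44% in aminophylline. Both genes were selected on this contrast, and the share of all gene pairs with such a separation was not computed. Nothing is therefore read from the ratio or from these shares. The summed Khdc1 level was 492 ± 78.0 FPKM in control and 565 ± 76.1 FPKM in aminophylline (SD, n = 3), a difference smaller than the SD.

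**Figure D2:**
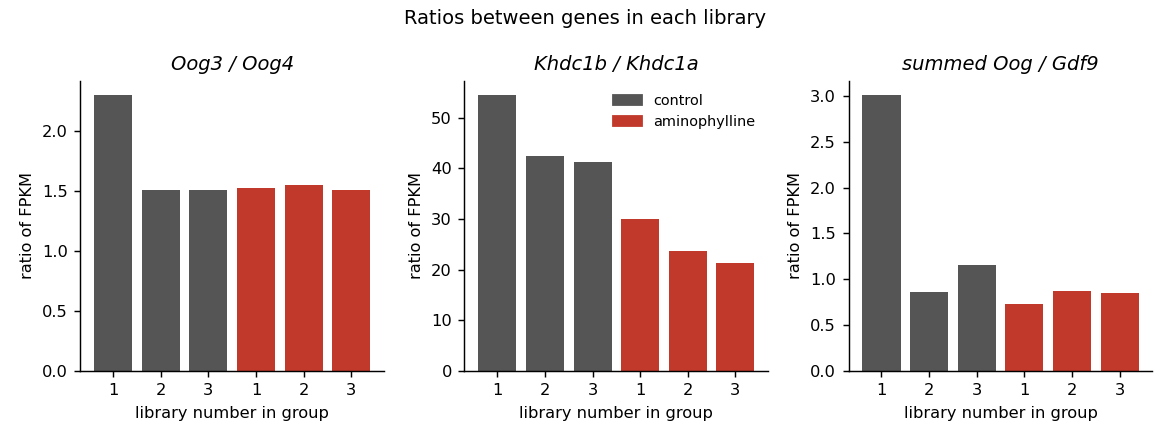
Ratios of FPKM (vertical axes, linear from 0) in each of the 6 libraries, for Oog3 to Oog4, Khdc1b to Khdc1a and the summed Oog genes to Gdf9. Control library 1 stands apart in the first and last ratios (2.30 and 3.01), and the Khdc1b to Khdc1a ratio is 41.3 or more in control and 30.0 or less in aminophylline.

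Reads from near-identical copies limit what can be said of single members. The coding sequences of Khdc1a and Khdc1c were 99.8% identical over 498 bases, and 26.5% of the 100-base windows of the Khdc1a transcript also occurred in Khdc1c. Khdc1b shared no such window with another gene. Summed, Khdc1a and Khdc1c had 13.7, 13.1 and 16.9 FPKM in control and 18.7, 28.6 and 33.3 FPKM in aminophylline, with no overlap. Khdc1a made up most of this sum and was selected on this contrast, so nothing is read from that separation.

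Oog1 was the least distinct member. Of its 100-base windows, 91.7% were also found in Gm2042, a copy on the same chromosome that was singled out here after its values were seen. Gm2042 had 150, 113 and 111 FPKM in control and 90.0, 103 and 97.2 FPKM in aminophylline. The order of the libraries within Gm2042 and Oog1 differed, but both had lower values in every aminophylline library. The sum of both genes was 216 ± 28.0 FPKM in control and 174 ± 9.94 FPKM in aminophylline (SD, n = 3). Oog2 shared 22.4% of its windows with other genes, mostly Pramel26, and Oog3 10.8%, all with a processed pseudogene. Oog4 shared none.

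The family name did not follow the closest sequence. Among each other the 4 Oog coding sequences were 70.4% (Oog2 and Oog4) to 80.4% (Oog1 and Oog3) identical. Oog1 was closer to Pramel25 (96.0%), Oog2 to Pramel26 (94.9%) and Oog3 to Pramel27 (87.8%) than to any other Oog gene. Oog4 was nearest to Oog1 (78.5%), with Pramel29 at 78.2%. These percentages count gaps as differences and compare the longest coding transcript of each gene.

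The PRAME relatives, a list chosen by symbol and with earlier results of these data known, were examined as the genes most like the oogenesins. Oog2, Oog3 and Oog4 lie among 20 of them in a stretch of 997 kb. Of the 23 genes there, 9 had a mean of at least 100 FPKM and 10 a mean under 1 FPKM, so abundant and nearly silent copies were interleaved. Oog3 had the highest level of the stretch, and Pramel29, which lies 49.2 kb from Oog3 and beyond Oog2, had 694 ± 68.7 FPKM in control and 492 ± 14.7 FPKM in aminophylline (SD, n = 3).

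**Figure D3:**
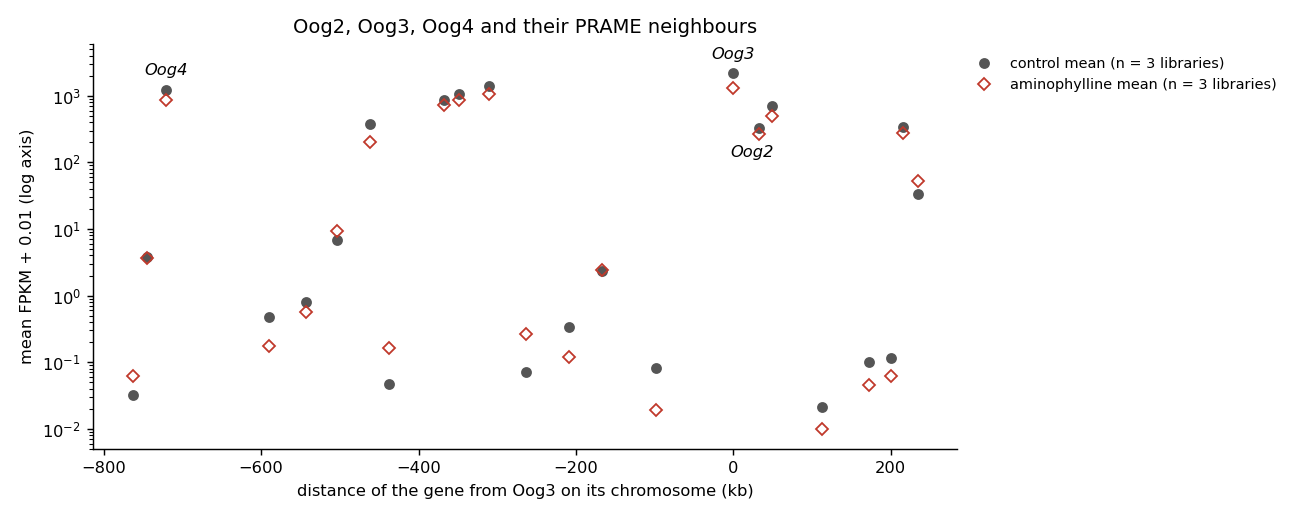
Mean FPKM plus 0.01 (log axis) of Oog2, Oog3, Oog4 and the 20 PRAME relatives around them, for control (filled circles) and aminophylline (open diamonds), against the distance of each gene from Oog3 in kb. The 9 genes with a mean of at least 100 FPKM all have the aminophylline mean below the control mean. They include Oog2, Oog3 and Oog4, which were selected on this contrast. Below that level the direction is mixed, with Pramel13 and Pramel22 among those higher in aminophylline, and 10 genes lie under 1 FPKM.

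Of the 39 PRAME relatives, 19 were expressed highly enough for the test. With limma, 1 was higher (Pramel13) and 1 was lower (Pramel23) at an unadjusted p under 0.05 and a fold change over 1.5, where 2.08% and 1.13% of all genes tested were called higher and lower. The log2 difference was below 0 for 14 of the 19, with a median of -0.25 against 0.10 over all genes tested. In 8 of the 19 the aminophylline libraries all lay below the control libraries, and in 0 they all lay above. That is 42.1% of the tested relatives, where 4.96% of all genes tested had this pattern. These genes share sequence and reads and are not independent. The list was also chosen with earlier results of these data known, so nothing is read from these counts. The labels do not say whether the libraries came from separate mice, so p-values measure only the spread between these libraries.

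Pramel23 had 549, 259 and 338 FPKM in control and 208, 208 and 182 FPKM in aminophylline. Its log2 difference was -0.87 (SE 0.238), with an adjusted p of 0.651 with limma and of 0.0331 with the replicate number as a block. Over the block and the fits that left out 1 library, the adjusted p of Pramel23 ranged from 0.0331 to 0.999. Control library 1 was again the highest, and without it the log2 difference was -0.57 and no longer past the fold threshold. Pramel13 went the other way, with 26.1, 28.0 and 45.6 FPKM in control and 34.5, 66.4 and 55.1 FPKM in aminophylline. The groups overlapped, and the log2 difference was 0.63 (SE 0.270, limma adjusted p = 0.682). The call of Pramel13 was lost without control library 1, control library 2, aminophylline library 2 or aminophylline library 3, with log2 differences of 0.48, 0.53, 0.43 and 0.56.

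The 5 most abundant relatives, Pramel27, Pramel26, Pramel51, Pramel25 and Pramel34, had means of 1252, 973, 840, 785 and 639 FPKM over the 6 libraries. None of them passed the fold threshold. Their log2 differences were -0.39, -0.29, -0.19, -0.25 and -0.42, with limma adjusted p-values of 0.684, 0.728, 0.767, 0.728 and 0.682. The nearest sequence relatives of Oog1, Oog2 and Oog3 thus had log2 differences of -0.25 (Pramel25), -0.29 (Pramel26) and -0.39 (Pramel27), beside -0.24, -0.27 and -0.71 for the Oog genes themselves.

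**Figure D4:**
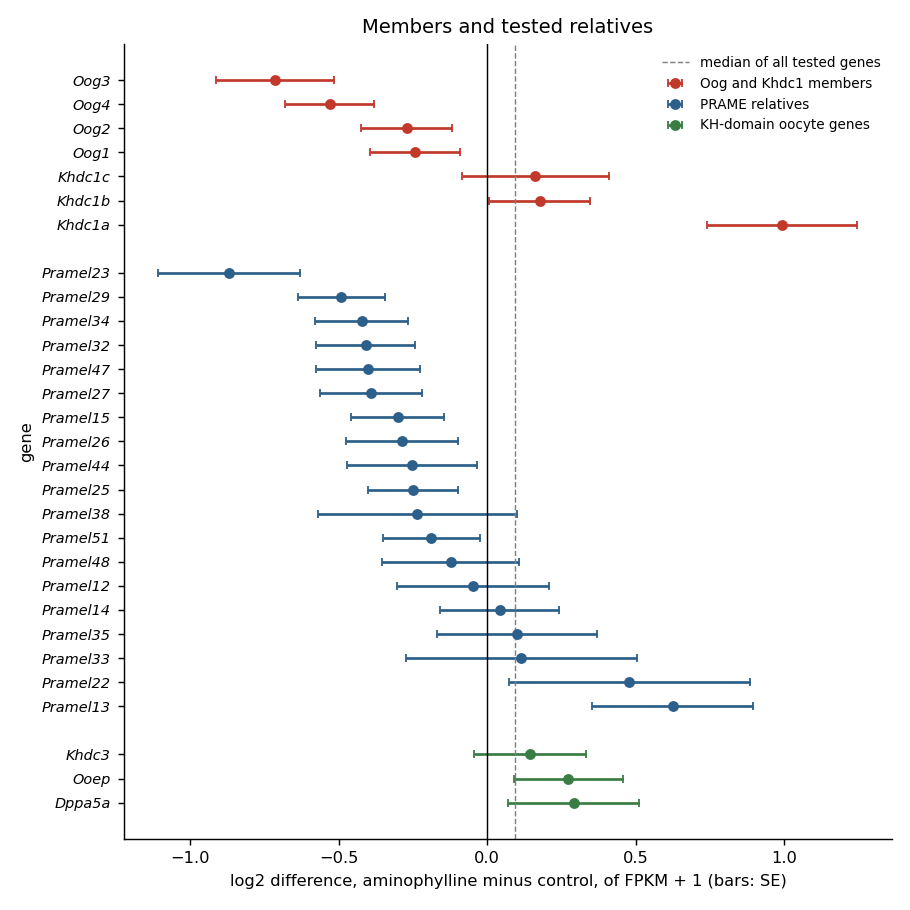
Log2 difference of FPKM + 1, aminophylline minus control (horizontal axis), with its standard error, for the 7 members, the 19 tested PRAME relatives and 3 KH-domain oocyte genes. The dashed line is the median of all genes tested, 0.10. The 4 Oog genes and 14 of the 19 relatives lie below 0, and Khdc1a lies farthest above it at 0.99.

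A short list of KH-domain genes outside the Khdc1 array was also compared, without a search for all such genes of the oocyte. It held Ooep and Khdc3, which encode parts of the subcortical maternal complex, and Dppa5a, a gene known from pluripotent cells. Ooep had 1823 ± 390 FPKM in control and 2182 ± 235 FPKM in aminophylline, Khdc3 129 ± 15.4 and 144 ± 29.0 FPKM, and Dppa5a 990 ± 333 and 1173 ± 108 FPKM (SD, n = 3). With limma, 0 of the 3 passed the unadjusted p of 0.05, and the log2 differences of 0.27, 0.14 and 0.29 were smaller than that of Khdc1a. Their limma adjusted p-values were 0.728, 0.837 and 0.750. Without control library 2, 2 of the 3 passed the unadjusted p, Ooep with a log2 difference of 0.44 and Dppa5a with 0.55, at limma adjusted p-values of 0.182 and 0.147. Without control library 1 the log2 differences of Ooep, Khdc3 and Dppa5a were 0.19, 0.05 and 0.08. Khdc3 had 0.06, 0.32 and 0.05 without aminophylline library 1, 2 or 3.

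Transcripts known from the 2-cell embryo were compared because the oogenesins are carried into that stage. The table held 13 of them, of which 6 were tested, and limma called 0 higher and 1 lower. The latter was Zscan4d, a zinc finger gene of the 2-cell stage, with 9.62, 4.02 and 10.4 FPKM in control and 4.14, 2.98 and 2.38 FPKM in aminophylline. The groups overlapped, and the log2 difference was -1.05 (SE 0.321), with an adjusted p of 0.661 with limma and of 0.0457 with the replicate block. Over the same alternatives it ranged from 0.0457 to 0.999. Arg2, Tcstv1 and Tcstv3, the most abundant of the list, had log2 differences of 0.02, 0.11 and 0.00 with limma adjusted p-values of 0.980, 0.864 and 0.998.

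The genes whose pattern over the 6 libraries was most like that of the summed Oog genes, among 4266 genes with a mean of at least 10 FPKM, were Trmt5, Cfap300, Ints9, Slc25a17 and Tbp (Pearson r of 0.996, 0.995, 0.993, 0.993 and 0.992). For the summed Khdc1 genes they were Dcp1a, Ptpn21, Wdr82, Ski and Helq (r of 0.995, 0.995, 0.994, 0.993 and 0.992). These 6 points include the group difference and library 1 of the control, and with 4266 genes compared, values this close to 1 are a description only.

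Across the whole table, libraries held 14112341 to 33641283 reads, and control library 2 was the shallowest. With limma, 215 genes were higher and 117 were lower in the aminophylline group at the unadjusted threshold. After adjustment 0 were higher and 0 were lower, with voom as well, and 750 genes had an unadjusted p under 0.05. Lower genes made up 35.2% of the calls with FPKM, 50.3% with TPM, 63.2% with median centring, 63.1% with quantile normalization and 59.5% with voom on recovered reads. With the replicate number as a block, 35 genes were higher and 12 lower at an adjusted p under 0.05. The labels do not state the pairing that this block assumes.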

How the data were processed

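The authors deposited FPKM values per gene (fragments per length of transcript and per library total) for 6 oocyte libraries. The submitters' processing notes name the GRCm38 (mm10) build, and the aligner and counting program are not given in the sources used here. Whole reads were recovered from the ratios that the FPKM of a gene formed across libraries (100% of values whole within 1e-06). They gave the depths and the exact Poisson intervals, which cover counting error only.

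Groups were taken from the labels. Genes that reached 1 FPKM in 3 or more libraries were fitted with limma 3.58.1 (R 4.3.3, two-sided, moderated variance with a trend) on log2(FPKM + 1), a scale that understates changes of low genes. Adjusted p-values are Benjamini-Hochberg values over all 10340 genes. Calls needed an unadjusted p under 0.05 and a fold change over 1.5. The code was tested on simulated data. The labels number the libraries 1 to 3 in both groups but do not state that libraries with the same number belong together. Deviations from the group means correlated at 0.138, 0.140 and 0.552 between libraries with the same number. Libraries with different numbers were not compared in this way, so a pairing is not established. The numbers were used as a block only as an alternative.

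The members and the lists of related genes were chosen with earlier results of these data known. Named genes were all members, the KH-domain genes, the 5 most abundant PRAME relatives, any other listed gene called, the 3 most abundant 2-cell transcripts, Gdf9, Zp3 and the 5 genes most correlated with each family sum. Pramel29, Pramel32 and Gm2042 were added after their values were seen. Positions and promoters came from RefSeq GRCm38.p6 and transcripts from GENCODE. Coding sequences were aligned with Biopython. Protein sequences were not used here.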

Additional observations from a re-analysis of the deposited data

How the results depend on the processing

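Of the 14 alternatives, the unmoderated linear model, the replicate block and the fit with no filter cannot move a log2 difference of the members. Under the others, 0 of the log2 differences of the members changed sign. They ranged from -0.90 to -0.50 for Oog3, -0.63 to -0.46 for Oog4, -0.37 to -0.19 for Oog2, -0.34 to -0.19 for Oog1, 0.82 to 1.23 for Khdc1a, 0.05 to 0.30 for Khdc1b and 0.04 to 0.33 for Khdc1c. As a share of recovered reads in place of FPKM, Khdc1b held 97.1% and Khdc1c 0.310% of its family, against 96.2% and 0.817% of FPKM. Over all genes, the counts of higher and lower genes (215 and 117) became 132 and 227 with median centring, 127 and 217 with quantile normalization, 99 and 59 with the unmoderated linear model, 268 and 127 with the replicate block and 243 and 357 with voom. Leaving out 1 library gave 119 (without control library 1) to 850 (without control library 3) higher genes and 56 (without control library 1) to 398 (without control library 2) lower genes. The number of PRAME relatives called higher (1) became 0 with no filter, TPM, median centring, the unmoderated model and voom, and 0 to 1 when 1 library was left out. The number called lower (1) became 0 with the unmoderated model and 2 with voom, and 0 to 1 when 1 library was left out. The 1 lower transcript of the 2-cell list became 2 with median centring, quantile normalization, the replicate block and voom, 0 with the unmoderated model, and 1 to 2 when 1 library was left out. The replicate block changed no other call of the 3 lists of related genes at the unadjusted threshold. The cause of these shifts was not tested. Where a control library was left out, the fit rests on 2 control libraries. Depth limits Khdc1c, with 41 reads in control library 2.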
